A study of Oryzias latipes with 7 samples.

Results

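By the per-array files, a small set of transcripts in medaka ovarian follicles switched level between 23 h and 14 h before spawning. It stayed on the new side until 2 h. The deposited series table gives other times to 5 of the 7 arrays, as described below. The set holds 60 probe sets, of which 35 switched on and 25 switched off, out of 63698 on the array and 47773 above a filter on low values. A probe set is the group of up to 6 array probes that measures one transcript sequence, and its level is given as the intensity the authors deposited. A member was defined by its 7 values sorted on the log2 scale: the largest gap between neighbouring values had to be at least 2, which is 4-fold, and had to part exactly the 14, 8 and 2 h arrays (late) from the 47, 35, 32 and 23 h arrays (early). Because these values chose the members, the switch itself is a description and carries no test. A single array can keep a probe set out. The counts were 164 on and 201 off when the 23 h array was left out and 322 and 189 without the 14 h array. They were 49 and 41 without 8 h, and 104 and 50 without 2 h. A rule without the 23 h array cannot part a switch at 14 h from one at 23 h. Without the 14 h array it cannot part it from one at 8 h. Larger counts therefore follow in part from the rule.

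Medaka (Oryzias latipes) is a small fish that spawns daily in the breeding season. Females were held at 27 °C with 14 h of light and 10 h of darkness, and at each time the largest and second-largest follicles were taken from the ovary. RNA from a pool of 100 follicles was labelled with Cy3 and read on 1 array for each of the 7 times. All groups are untreated follicles that differ in stage, and the labels give no strain, genotype or age. Per the series title, the stages run from late vitellogenesis through oocyte maturation to just before ovulation. There were no replicates, so differences between times have no test, and pooling hides any spread between follicles.

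As background, a follicle is an oocyte surrounded by granulosa and theca cells. During vitellogenesis the oocyte takes up yolk made in the liver while the follicle cells make oestradiol. A surge of luteinizing hormone from the pituitary then turns follicle cells to making a maturation-inducing steroid, the oocyte resumes meiosis, and the follicle wall is later opened by proteases to release the egg. Hormones were not measured here. In pooled follicles, fewer cells of a type and less RNA per cell cannot be told apart.

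The files do not name the genes of the probe sets, and 0 of the 63698 identifiers matched the RefSeq gene table used here, so roles, sequences and cell type markers are not given. The labelled tissue could not be checked against its markers for the same reason. The 2 members with the largest gap in each direction are named by identifier and the others by their place in the order of gaps. Where 4 and then 3 intensities are listed, they run in time order over the early arrays (47, 35, 32 and 23 h) and the late arrays (14, 8 and 2 h).

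The times rest on the per-array files. The same intensities stand in the deposited series table, which puts 5 of the 7 arrays under another time: in it, the arrays filed under 14, 8 and 2 h stand under 32, 8 and 23 h. With the table's times the rule found 6 probe sets on and 9 off. None of the 60 members could be among them, since a member's largest gap parts other arrays. One label field of the 2 h sample gives 5 h, which leaves the order of the arrays and the members as they are. By the per-array files, the array numbers have 6 digits at 47, 23, 14 and 2 h. They have 8 digits at 35, 32 and 8 h, so both series hold arrays from each side of the switch. With the table's times, the arrays of 8 digits would instead be those of 14, 8 and 2 h. Array series and side of the switch would then coincide, also for the 6 on and 9 off. Array medians ranged from 599 (8 h) to 703 (47 h), and on the log2 scale the median of the 8 h array lay 0.19 below that of the 2 h array.

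The median member of the 35 that switched on went from the lower part of the array to the upper part, with exceptions at both ends: 1 was above the 75th percentile before the switch and 1 was still below percentile 50 at 2 h. Their median intensity was 168, 125, 133 and 308 over the early arrays and 3303, 7823 and 6992 over the late ones. In rank among all probe sets of an array, the median member stood at percentile 40.4 in the 23 h array, 74.4 in the 14 h array and 86.5 in the 2 h array. The mean over the late arrays exceeded the early mean by a median of 4.85 on the log2 scale (28.9-fold), with a range of 2.97 to 9.07. In the 47, 35, 32 and 23 h arrays, 8, 7, 10 and 1 of the 35 lay at or below the 25th percentile. The size of the rise is poorly measured there. The gap had a median of 2.82. The rule was met in this direction by 0.0733% of the probe sets kept.

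The 25 members that switched off ran the other way, and the median member ended at percentile 26.4 of the 2 h array. Their median intensity was 4088, 1886, 2083 and 947 over the early arrays and 132, 106 and 80.9 over the late ones. The median percentile was 77.9 in the 47 h array, 54.3 in the 23 h array and 31.8 in the 14 h array. The early mean exceeded the late mean by a median of 14.3-fold, with a range of 8.82-fold to 65.4-fold. The gap had a median of 2.32, and 0.0523% of the probe sets kept met the rule in this direction. In the 14, 8 and 2 h arrays, 5, 11 and 10 of the 25 lay at or below the 25th percentile, where the depth of the fall is poorly measured.

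**Figure D1:**
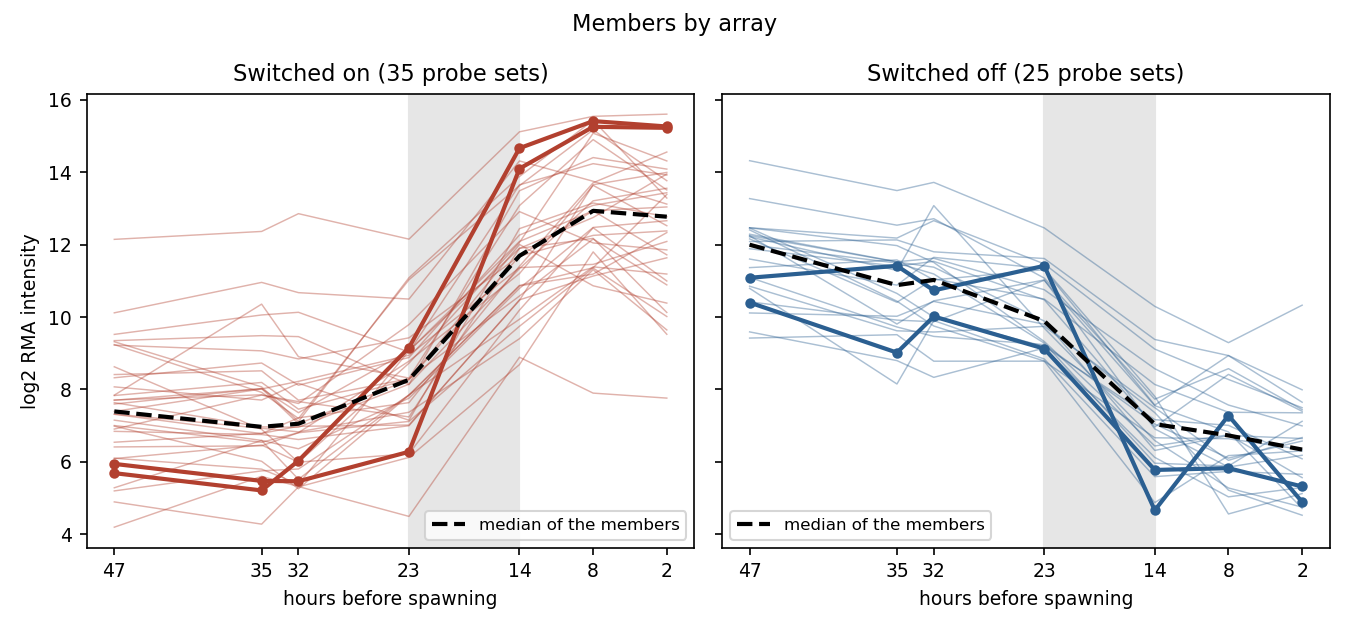
Log2 RMA intensity of each member (thin lines) against hours before spawning, with the 2 members of largest gap in each direction drawn bold with points, the median of the members dashed, and the interval from 23 h to 14 h shaded. The 35 lines on the left cross from low to high and the 25 on the right from high to low in the shaded interval, and all stay on the new side in the 3 late arrays, as the rule requires.

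Probe set OLAT0001S00036582 had the largest gap of all. Its intensity was 61, 44, 44 and 78 over the early arrays and 17550, 39091 and 38330 over the late ones. Every late value lay above the 95th percentile of its array. The early values did not overlap with the late ones, as the rule requires of every member. The gap of 7.82 on the log2 scale corresponds to 226-fold between 23 h and 14 h, while the change from 32 h to 23 h was 1.76-fold. The early values lay at percentiles 17.9 to 26.4 of their arrays, and with an offset of 64 added to every intensity the gap was 6.96.

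Probe set K_OLAT0000S00014882 reached similar levels but had left its early level by 23 h. Its intensity was 52, 37, 65 and 570 over the early arrays and 25970, 43617 and 39333 over the late ones. From 32 h to 23 h it was 8.73-fold higher and from 23 h to 14 h a further 45.6-fold, with a gap of 5.51. Its 47, 35 and 32 h values lay at percentiles 21.7, 14.6 and 23.85 of their arrays, so the 8.73-fold is poorly measured. Of the 35 members on, 4 had a gap of at least 4 and 17 of at least 3.

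Among the members off, probe set OLAT0001S00030788 had the largest gap, at 3.46. Its intensity was 2171, 2728, 1705 and 2728 over the early arrays and 25, 155 and 30 over the late ones. The early values spanned 0.68 on the log2 scale, and the 14 h value lay at percentile 7.84 of its array, where no detection limit is known, so no fold is given. The 8 h value was the highest of the late ones, and the late side was uneven at low intensity.

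Probe set OLAT0001S00015970 was next, with a gap of 3.19. Its intensity was 1351, 518, 1035 and 558 over the early arrays and 55, 57 and 40 over the late ones. The late values were nearly level, at percentiles 17.2 to 22.3 of their arrays, where no detection limit is known. The 23 h value was 10.2-fold above the 14 h value, a fold that is poorly measured at this depth. With an offset of 64 its gap was 2.27. In the direction off, 5 of 25 gaps were at least 3 and 0 reached 4.

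Ranks within an array show how far single members moved. Of the 35 on, 9 were above the 95th percentile at 8 h and 9 at 2 h, where 0 had been in any early array. Of the 25 off, 1 was above the 95th percentile at 47 h. Above the 75th percentile were 14 of the 25 at 47 h, 5 in each of the 35 h and 32 h arrays and 1 in the 23 h array.

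**Figure D2:**
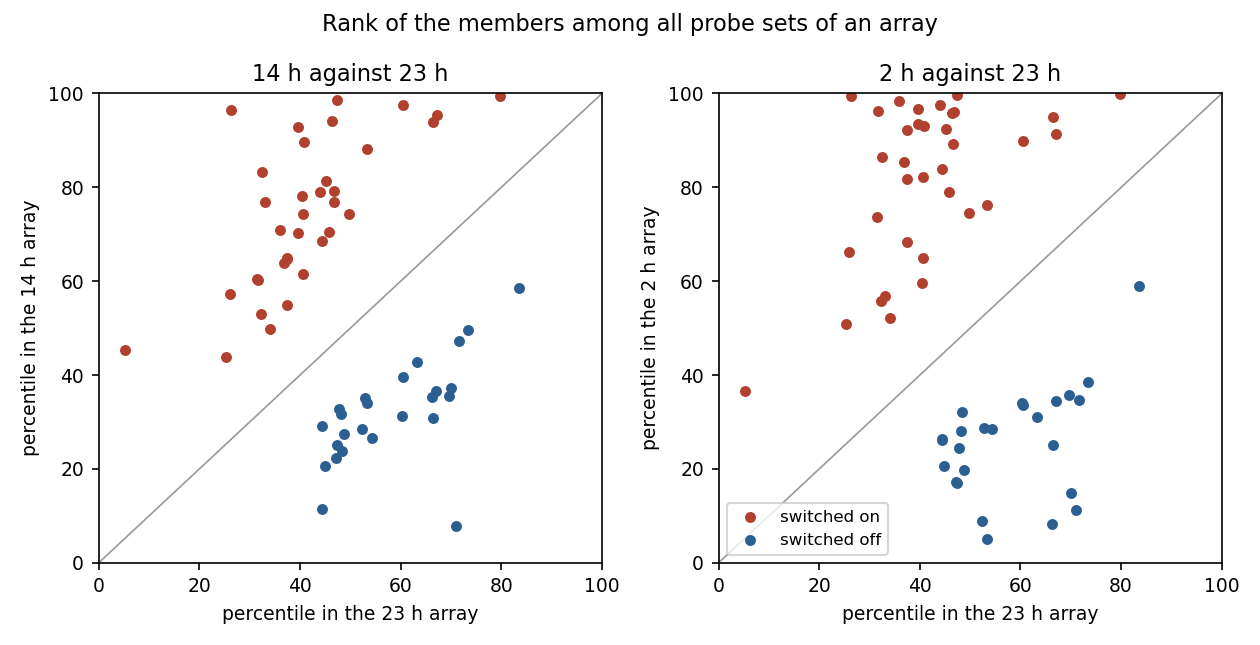
Rank of each member among all 63698 probe sets of an array, as a percentile, in the 14 h array (left) and the 2 h array (right) against its rank in the 23 h array, with the line of equal rank. Members on lie above the line and members off below it; in the 14 h array 32 of the 35 on were above percentile 50 and 1 of the 25 off was.

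At 23 h, before the switch, most members already lay in the direction they later took, compared with 32 h. The median change was 0.77 (log2) on and -0.81 off. Both are smaller than the 1.02 below which 95% of the 35 h to 32 h differences stayed, so the median move lies within that spread. At 32 h, 10 of the 35 on lay at or below the 25th percentile, where a rise is poorly measured. The earlier intervals did not show a move toward the later side in members on. From 47 h to 35 h, 19 of the 35 were higher and 16 lower, beside 45.7% and 54.3% of all kept. From 35 h to 32 h, 24 of the 35 were lower, beside 50.6% of all kept, so the next interval starts from a lower level in most. From 32 h to 23 h, 27 of the 35 members on were higher, beside 50.9% of all probe sets kept. Of these, 14 were at least 2-fold higher (10.4% of all kept, 25.4% of the 12319 spanning 4-fold or more over all arrays). The share among those spanning 4-fold is closer than that among all kept, since every member spans 4-fold by the rule. It is still not matched to the members, which moved further. Their late mean minus early mean was at least 2.97 (log2) in members on and -3.14 or lower in members off. An excess over this share, here and below, therefore cannot be read as particular to the members. In the same interval 3 of the 35 were at least 2-fold lower (8.18% of all kept, 20.2% of those spanning 4-fold). This interval joins arrays of different number series, whose medians differed by 0.12 (log2). Within the series of 6 digits, from 47 h to 23 h, 31 of 35 were higher, beside 44.1% of all kept. At least 2-fold higher were 11 of the 35, beside 5.18% of all kept. For this pair of arrays the share among those spanning 4-fold was not computed. For 25 of the 35, the highest early value was that of the 23 h array, against 29.2% of all probe sets kept and 37.7% of those spanning 4-fold.

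In some members on, the step into the 23 h array was as large as the switch. The member with the 16th-largest gap had 69, 56, 42 and 535 over the early arrays and 4354, 7832 and 8426 over the late ones. It was 12.8-fold higher at 23 h than at 32 h and 8.14-fold higher again at 14 h. Its 47, 35 and 32 h values lay at percentiles 24.9, 21.4 and 17.2 of their arrays, so the 12.8-fold is poorly measured. In its sorted values the gap below the 23 h value was 2.96, against 3.03 at the switch.

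Other members on showed no such approach. The member with the third-largest gap, at 4.27, had 269, 209, 288 and 142 over the early arrays and 5562, 9087 and 6992 over the late ones. Its 23 h value was the lowest of the 7, and it was 39.2-fold higher at 14 h. The fourth and seventh members by gap dipped in the same way, to 281 and 524 at 23 h from 703 and 1121 at 32 h. The median gap was 2.92 in the 14 members that were at least 2-fold higher at 23 h than at 32 h and 2.72 in the other 21.

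Members off were lower at the end of the early period than at its start. From 47 h to 35 h, 21 of the 25 were lower (54.3% of all kept). Of these, 8 were at least 2-fold lower (7.14% of all kept, 17.4% of those spanning 4-fold). From 35 h to 32 h, 13 were lower (50.6% of all kept) and 12 higher. From 32 h to 23 h, 18 were lower (49.1% of all kept), 9 at least 2-fold (8.18% and 20.2%). Within the series of 6 digits, from 47 h to 23 h, 23 of 25 were lower, beside 55.9% of all kept. The median change of the 25 was -1.41 on the log2 scale, against -0.06 over all probe sets kept. In this comparison 16 of the 25 were at least 2-fold lower, beside 4.39% of all kept. Its share among those spanning 4-fold was not computed. The lowest early value was that of the 23 h array in 14 of the 25, against 33.2% of all kept and 31.5% of those spanning 4-fold.

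The member off with the fourth-largest gap had the largest drop from 32 h to 23 h. Its intensity was 4751, 2497, 8646 and 827 over the early arrays and 96, 39 and 27 over the late ones. The 32 h value was 10.5-fold above the 23 h value, and the 23 h value 8.60-fold above the 14 h value.

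The member off with the highest intensities had 20437, 11531, 13490 and 5638 over the early arrays and 1256, 627 and 1284 over the late ones. It was the only one of the 25 above percentile 50 in any late array.

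**Figure D3:**
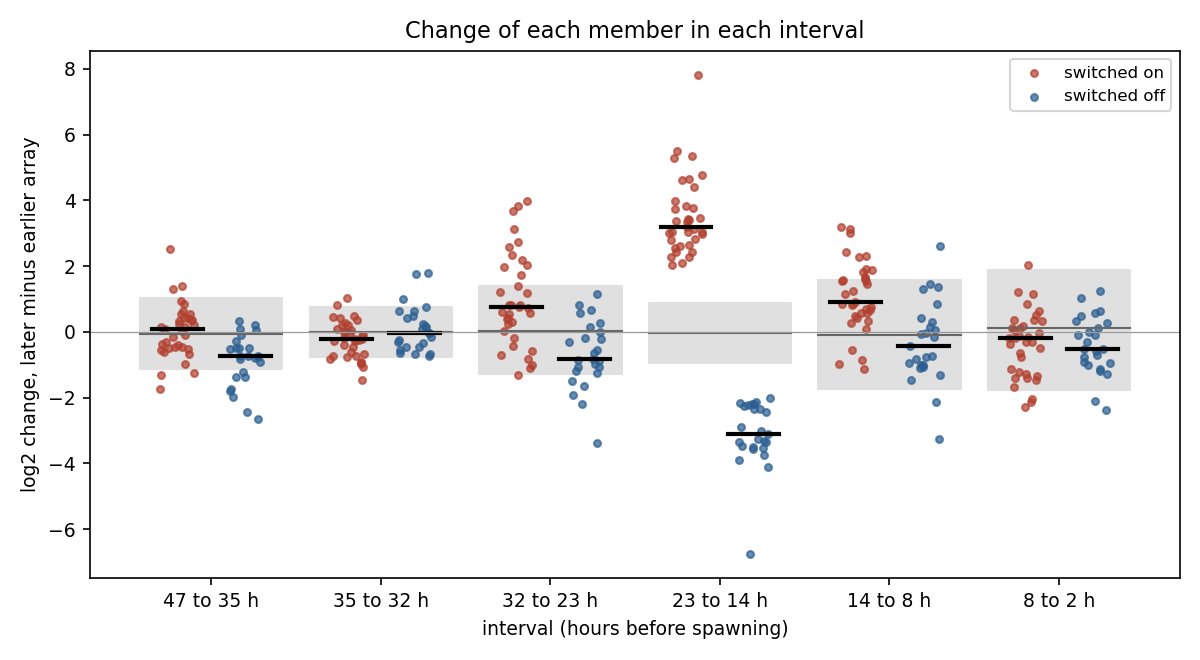
Log2 change of each member between consecutive arrays, later minus earlier, for members on (red) and off (blue), with the median of each as a black bar; grey boxes span the 5th to 95th percentile of all 47773 probe sets kept and the grey line is their median. The interval from 23 h to 14 h holds all 60 members outside the grey box because the rule chose it; from 32 h to 23 h the medians were 0.77 on and -0.81 off, and from 14 h to 8 h 0.92 on and -0.44 off.

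After the switch most members on were higher still at 8 h. From 14 h to 8 h, 31 of the 35 were higher, beside 44.1% of all kept. Of these, 17 were at least 2-fold higher (10.3% of all kept, 25.7% of those spanning 4-fold). A rise of at least 4-fold was seen in 6 (3.02% of all kept). At least 2-fold lower was 1 of 35, beside 15.5% of all kept and 33.3% of those spanning 4-fold. From 8 h to 2 h, 13 were higher (55.7% of all kept), 3 of them at least 2-fold (15% and 31.7%). Lower were 22 (44.3% of all kept), 11 at least 2-fold (12.4% and 31.9%). The 11 of 35 lie near the share among those spanning 4-fold. Both intervals join arrays of different number series. With each array centred on its median, 37 probe sets met the rule on, of which 21 were at least 2-fold higher at 8 h than at 14 h and 11 at least 2-fold lower at 2 h than at 8 h. With an offset of 64 these were 12 and 8 of 29, and with quantile normalization 17 and 11 of 37. Shares over all kept were not computed with these settings.

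The members on are grouped by which of the 3 late arrays was highest, a sorting that yields such courses in any set. The highest array was that of 8 h for 18 members, beside 27.4% of all probe sets kept if only the late arrays are compared, and 27.8% of those spanning 4-fold. It was that of 2 h for 13 members (37.5% and 33.8%), a count near these shares. It was that of 14 h for 4 members (35% and 38.4%).

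The 18 members highest at 8 h had median intensities of 4043, 10917 and 6437 over the late arrays. The member with the 22nd-largest gap peaked sharply, with 30, 19, 40 and 70 over the early arrays and 411, 3564 and 736 over the late ones. It was 8.66-fold higher at 8 h than at 14 h, and the 8 h value was 4.84-fold above the 2 h value. By the rule, the 2 h value still lay above every early value. Others in this course held their level: in both named members on, the 8 h value was no more than 1.11-fold above the 2 h value.

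The 13 members highest at 2 h had median intensities of 2635, 6882 and 10710 over the late arrays. The member with the fifth-largest gap had 159, 110, 149 and 199 over the early arrays and 2707, 13392 and 24114 over the late ones. It was 4.95-fold higher at 8 h than at 14 h and 1.80-fold higher again at 2 h. The ninth member by gap had 1409, 12903 and 16325 over the late arrays, and 50.7% of its log2 change from the early mean to the highest value was in place at 14 h.

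The 4 members highest at 14 h all had small gaps, between 2.06 and 2.16. The one with the 29th-largest gap had 1109, 1987, 1633 and 1444 over the early arrays and 20334, 13777 and 8901 over the late ones. It was 14.1-fold higher at 14 h than at 23 h and then lower at both later times. Its gap was set by the 2 h value, its lowest late one.

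The member on with the highest intensities had 4530, 5272, 7409 and 4549 over the early arrays and 35514, 47781 and 49818 over the late ones. It was above the 75th percentile in each early array, unlike every other member on, and its late values spanned 0.49 on the log2 scale. They lay above percentile 99 of their arrays, where compression of the signal was not tested.

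How much of the log2 change was in place at 14 h is largely set by the rule, which puts the largest gap there, and is 100% by definition where 14 h is the extreme. As a description, the 14 h value had covered a median of 76.0% of the distance from the early mean to the late extreme in the members on and 78.7% in the members off. The share was at least 75% in 19 of 35 and 16 of 25. Over the late arrays, 8 of the 35 on and 6 of the 25 off stayed within a 2-fold range, beside 55.3% of all probe sets kept. A range of 4-fold or more was spanned by 11 and 4, beside 15.1%. For these ranges, shares among those spanning 4-fold over all arrays were not computed.

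Among the members off, the lowest array was that of 2 h for 12, beside 30.2% of all probe sets kept over the late arrays and 37.3% of those spanning 4-fold. It was that of 8 h for 7 (39% and 32.3%) and that of 14 h for 6 (30.8% and 30.4%). From 14 h to 8 h, 8 were at least 2-fold lower (15.5% of all kept, 33.3% of those spanning 4-fold) and 4 at least 2-fold higher (10.3% and 25.7%). From 8 h to 2 h, 6 were at least 2-fold lower (12.4% and 31.9%) and 2 higher (15% and 31.7%). These counts lie near or below the shares among probe sets spanning 4-fold. With centred arrays, 21 probe sets met the rule off, of which 4 were at least 2-fold lower and 3 higher from 14 h to 8 h. With an offset of 64 these were 3 and 1 of 17, and with quantile normalization 7 and 2 of 22.

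Some members off, low already at 14 h, were lower again later on the log2 scale. The member with the 10th-largest gap had 1107, 1039, 1381 and 890 over the early arrays and 164, 37 and 23 over the late ones. Its 23 h value was 5.43-fold above the 14 h value and its 14 h value 4.41-fold above the 8 h value, and 49.1% of its log2 change was in place at 14 h. The fifth member by gap, which was lowest at 8 h, had 2590 in the 23 h array and 224, 24 and 35 over the late arrays. The 8 h and 2 h values of both sit below the 25th percentile of their array, where small differences in intensity make large folds.

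**Figure D4:**
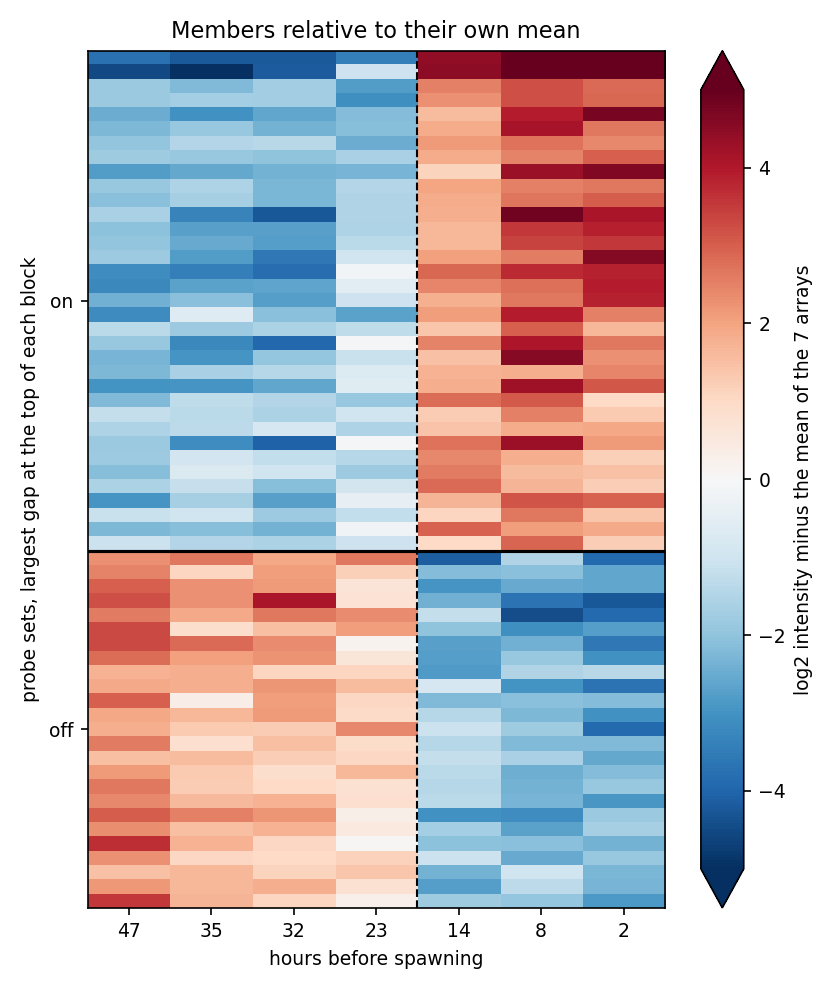
Log2 intensity of the 60 members minus each member's own mean over the 7 arrays (colour; values beyond 5 take the end colours), with the 35 on above the line and the 25 off below it, ordered by gap, and a dashed line between 23 h and 14 h. Many rows in the on block are paler at 23 h than at 32 h, and most of the darkest late values there lie at 8 h or 2 h.

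The rule fixes the switch within each array-number series and between arrays that share a time of day, so the following values describe the members and support nothing. For arrays of 6 digits, the gap between 47 and 23 h on one side and 14 and 2 h on the other was at least 2.03 on and 2.02 off. For arrays of 8 digits, the gap between 35 and 32 h on one side and 8 h on the other was at least 2.30 on and 2.09 off, with medians of 4.80 and 3.46. The 32 h and 8 h arrays share a time of day, and their difference had a median of 5.38 (log2) in members on and -4.05 in members off, beside -0.14 over all probe sets kept. The 47 h and 23 h arrays, which also share one and lie on the same side of the switch, differed by a median of 0.47 in members on and -1.41 in members off. The part of array series and time of day in the switch was not tested.

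Of the members, 13 on and 12 off carry identifiers of the class that begins with K, which holds 35.5% of the probe sets kept. All 60 are measured by 6 probes, as are 99.3% of the probe sets kept. The files do not say which probe sets measure the same transcript, so the 60 need not be 60 genes. Another member lay within 0.5 (root mean square of the log2 differences over the 7 arrays) for 8 of 35 on and 10 of 25 off. The same count over all probe sets kept was not computed. Among all probe sets kept, the closest lay within 0.5 for 10 on and 13 off, and was itself a member for 8 of each. A member off differed by 0.24 from a probe set outside the 60, so likeness is not confined to the set. The closest pair of members, on, differed by 0.24 and has 1 member in each identifier class. One of them had 604, 242, 147 and 2089 over the early arrays and 12678, 36876 and 13927 over the late ones. The other had 638, 268, 139 and 2172, then 15101, 44272 and 9996.

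The rule left out probe sets with a clear 4-fold separation at 14 h whose largest gap lay elsewhere. A gap of at least 2 at this place, largest or not, was held by 45 probe sets on and 32 off, or 0.0942% and 0.067%, so 10 on and 7 off were not members. Of the 10, 5 had their largest gap at a switch from 23 h onward, 3 stood apart in the 8 h array alone, 1 in the 14 h and 8 h arrays and 1 from 8 h onward. Of the 7, 3 had the larger gap at a loss from 23 h onward, 3 at 2 h alone and 1 from 8 h onward. One of the 10 had 29, 30, 21 and 2024 over the early arrays and 29001, 43245 and 9489 over the late ones, so that its switch at 14 h followed a larger one at 23 h.

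At the threshold, the members just inside had gaps of 2.03, 2.06 and 2.07 on and 2.02, 2.06 and 2.09 off. Just outside lay gaps of 1.97, 1.95 and 1.94 on and 1.95, 1.94 and 1.88 off. Between 1.5 and 2 there were 16 probe sets on and 20 off, so the edge of the group is a choice of limit and not a break in the values. The rule applied 1 interval earlier, to a switch from 23 h onward, gave 93 on and 100 off, and 1 interval later, from 8 h onward, 236 on and 100 off. The switch between 23 h and 14 h held the fewest of these 3 in each direction, and whether the numbers differ was not tested.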

How the data were processed

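The authors deposited RMA intensities on a linear scale, 1 file per array, per the file headers. RMA is named in the submitters' processing notes, without version or settings. Times come from the stage labels. Values were converted to log2, and only probe sets whose 7-array mean exceeded the 25th percentile (6.24) were used, 47773 of 63698. Gaps, changes and percentiles were computed with Python 3.11.15, pandas 2.3.3 and numpy 2.4.6. No test was run, since each time has 1 array and the values chose the members; the number of arrays limits the precision. The nearest measure of spread, the 35 h to 32 h difference, stayed below 1.02 (log2) for 95% of the probe sets kept. Both arrays are of the series of 8 digits, so it leaves out differences between series, and it pools all intensities. With the series table's times these arrays would be those of 2 h and 14 h. The rule was run on simulated data with planted switches. These were larger than the median shift of the members, with the same spread at every intensity. The run therefore does not bear on members near the limit or at low intensity. The members and lists were chosen with earlier results of these data known. The gene lists and markers needed gene symbols and were not applied. Named probe sets are the 2 with the largest gap in each direction; examples placed by gap were chosen after their values were seen. Likeness is a root mean square difference in place of a planned correlation over the 3 or 4 arrays of a side. Alternatives were other filters and gap limits, an offset of 64, centring, quantile normalization, leaving out each array and the series table's times.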

Additional observations from a re-analysis of the deposited data

How the results depend on the processing

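The number of members depended on the limits and on which arrays were used. Filtering at the 50th percentile left 21 on and 8 off (29 in all), a largest gap of at least 1 gave 90 on and 129 off (219), and one of at least 3 gave 17 and 5 (22). With the times of the series table there were 6 on and 9 off (15). By construction none of the 60 could be among them. For the same reason the 4 named probe sets had no gap with those times. Leaving out 1 array gave 32 to 322 on, 25 to 201 off and 57 to 511 in all: 164 on and 201 off without the 23 h array, 322 and 189 without 14 h, 49 and 41 without 8 h, and 104 and 50 without 2 h. A rule over fewer arrays asks less, so larger counts follow in part from its construction. More were off than on with a gap of at least 1, without the 23 h array and with the series table's times, unlike in the 60. Of the 60 members, 55 to 60 met the rule when 1 array was left out. Leaving out an array cannot narrow a member's gap between the sides, so this number is largely set by construction. With the series table's times it was 0, as it had to be. No filter gave 36 and 25, the offset of 64 gave 29 and 17 (27 of the 35 on and 13 of the 25 off kept), centring 37 and 21 (56 kept) and quantile normalization 37 and 22 (57 kept). The offset also lowered the gap of OLAT0001S00036582 from 7.82 to 6.96 and that of OLAT0001S00015970 from 3.19 to 2.27. No paired analysis was possible because no time point has a replicate. Signal limits the low side: at 14, 8 and 2 h, 5, 11 and 10 of 25 members off lay at or below the 25th percentile of the array. The same holds before the switch for members on, with 8, 7, 10 and 1 of 35 there at 47, 35, 32 and 23 h.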
